A study of Mus musculus with 9 samples.

Results

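The levels of 22180 genes were described in splenic dendritic cells (DCs) of naive mice with intact C/EBPbeta, using 6 of the 9 array samples of the series. The samples were chosen by their labelled genotype, C/EBPbeta+/+, and are called control replicates 1 to 6. All 6 carry the strain label C57BL/6 and the microenvironment label Naive, and the other 3 samples, which lack C/EBPbeta, were not used. Cells were sorted as CD11c+MHCclassII+ with a stated purity above 95%. The labels name both C57BL/6 and CD11c.Cre mice as sources, so some controls may carry the Cre transgene, and they do not say which. Neither age nor the number of animals behind a sample is stated, and nothing says that the replicates came from separate mice. The spread between replicates given here may therefore be technical in part or in whole, and with 1 group no test between groups was made.

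DCs are the cells that take up antigen, cut it to peptides and show it to T cells on MHC molecules. Conventional DCs of the spleen fall into cDC1, which depend on the transcription factors IRF8 and BATF3 and present antigen from dead cells on MHC class I, and cDC2, which depend on IRF4, NOTCH2 and RELB and present mainly on MHC class II. Both arise from bone marrow precursors that respond to the cytokine FLT3 ligand, and both carry the factor ZBTB46, which most other myeloid cells lack.

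Class II genes lay near the top of all genes, and their promoters are shown because most hold letters of the boxes that control them. Class II transcription is known to require an X box, bound by RFX and CREB-type factors, and a Y box, an inverted CCAAT motif bound by NF-Y, on which the co-activator CIITA is assembled. Each window lies just upstream of the RefSeq start (GRCm38.p6) and reads 5′ to 3′ on the strand of the gene. Capitals mark TGATTGG, the Y box letters, and ATGATGC, letters within the X box region. Other forms of the X box were not searched for, so a window without ATGATGC may still hold an X box. Of the 9 windows read, the 4 with both motifs come first, followed by H2-Aa, with the Y box letters alone, and H2-DMa, with neither.
H2-Eb1, chr17:34305732-34305831, plus strand: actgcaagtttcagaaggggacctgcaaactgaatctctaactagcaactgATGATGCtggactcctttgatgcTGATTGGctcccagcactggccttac
H2-DMb1, chr17:34153056-34153155, plus strand: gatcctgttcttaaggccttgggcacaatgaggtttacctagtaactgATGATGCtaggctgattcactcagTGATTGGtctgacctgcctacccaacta
H2-DMb2, chr17:34145114-34145213, plus strand: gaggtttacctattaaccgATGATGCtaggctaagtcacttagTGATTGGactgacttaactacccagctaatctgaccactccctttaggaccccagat
H2-Ob, chr17:34238770-34238869, plus strand: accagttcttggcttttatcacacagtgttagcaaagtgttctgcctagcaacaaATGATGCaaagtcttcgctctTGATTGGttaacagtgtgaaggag
H2-Aa, chr17:34287859-34287958, minus strand: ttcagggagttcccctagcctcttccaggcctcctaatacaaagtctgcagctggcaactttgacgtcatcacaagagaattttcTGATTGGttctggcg
H2-DMa, chr17:34122697-34122796, plus strand: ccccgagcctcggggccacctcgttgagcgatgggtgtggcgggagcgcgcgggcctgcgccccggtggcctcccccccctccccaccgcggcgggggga

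Searched on both strands over the 250 bases before each start, TGATTGG lay in 7 of the 8 class II genes found in the sequence table and in 8.38% of all 27025 genes. ATGATGC lay in 4 of the 8 and in 2.33% of all genes, and both motifs in 4 of the 8 and in 0.185% of all genes (50 genes). In H2-Eb1 the Y box letters began 61 bases before the start and ATGATGC began 84 bases before it. The 2 motifs do not overlap in any of these windows. A match describes these letters and is no measured binding site, and H2-Ab1 was not matched.

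Values are log2 intensities as deposited, and each gene is represented by its brightest probe over the 6 samples among probes that name exactly 1 gene. A probe's brightness depends on how well it binds as well as on the RNA, so a rank places a gene among all probes and does not measure its RNA against that of another gene. Gene levels ran from 2.14 to 13.79 with a median of 5.92. The 1105 olfactory receptor genes, which DCs are not thought to use, had a median of 3.24, and their 95th percentile, 5.52, served as the level of a gene with no clear signal, called the olfactory reference. By the mean of the 6 controls, 12684 genes (57.2%) lay above it, 11935 of them in every control, and 8618 genes lay below it in every control. The highest 10%, 2218 genes, began at 9.52, and the 500th gene was at 11.0.

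As deposited, the arrays differed little from each other. Correlations between pairs of arrays across probes lay between 0.993 and 0.996, array medians between 5.49 and 5.55, and the number of genes above the reference in a single array between 12545 and 12871. The deposited values had passed RMA, whose quantile normalization makes medians and such counts alike. These medians and counts therefore do not measure how alike the samples were. Correlations across probes of very different levels are high in any case. Xist, the RNA that silences 1 X chromosome in females, was read between 11.09 and 11.56 in the 6 samples, and the Y-linked genes Uty, Kdm5d and Eif2s3y had means of 3.70, 3.17 and 3.06, below the reference. Nnt, which is partly deleted in some C57BL/6 substrains, had a mean of 8.88 ± 0.11 (SD, n = 6).

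The 5 DC markers were read well above the reference in all 6 samples. Itgax and H2-Ab1 encode products used for the sort, so the check of the label rests on Flt3, Zbtb46 and Dpp4, which were not. Itgax, which encodes CD11c, was lowest at 12.04, had a median of 12.18 and was highest at 12.25. H2-Ab1, the class II beta chain, ranged from 13.65 through a median of 13.69 to 13.71 and ranked 3 among all genes. Flt3, the receptor for FLT3 ligand, ranged from 11.39 through 11.55 to 11.61. These 3 genes lay in the highest 10% of genes in every sample. Dpp4, the peptidase CD26, ranged from 11.61 through 11.69 to 11.75. Zbtb46 ranged from 9.20 through 9.29 to 9.38, below the start of the highest 10%. No marker had an SD above 0.10. In the curve of all gene levels, 4 of the 5 sit in the steep part at the left and Zbtb46 at rank 2596.

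**Figure D1:**
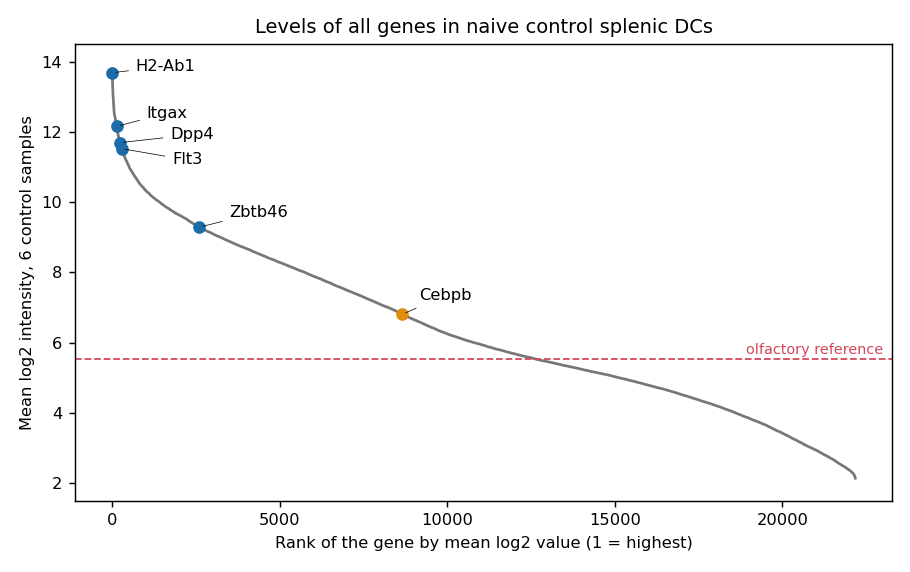
Mean log2 intensity over the 6 controls (vertical axis) of 22180 genes in order of rank (horizontal axis), with the 5 DC markers in blue, Cebpb in orange and the olfactory reference as a dashed line. H2-Ab1, Itgax, Dpp4 and Flt3 sit between 11.52 and 13.68, Zbtb46 at 9.29 and Cebpb at 6.81.

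Genes of both conventional DC types were read at high levels in every sample. Of 17 cDC1 genes measured, 14 lay in the highest 10%, with a median level of 11.1 against 5.92 over all genes. They included Irf8 at 11.61 ± 0.05 (SD, n = 6), Cd8a at 11.79 ± 0.14, Tlr3, a sensor of double-stranded RNA, at 11.12 ± 0.20, and Xcr1, the receptor for the chemokine XCL1, at 10.37 ± 0.17. Wdfy4, which is needed for cross-presentation, reached 12.38 ± 0.07. Batf3 was at 9.24 ± 0.10, and the integrin gene Itgae at 8.04 ± 0.21 was the lowest of the list. With the mean of a gene's probes in place of the brightest probe, the cDC1 median was 10.4.

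Of 22 cDC2 genes, 16 lay in the highest 10%, with a median of 10.4. Cd7 led the list at 12.03 ± 0.06, followed by Cd4 at 11.44 ± 0.23 and Sirpa, an inhibitory receptor that binds CD47, at 11.38 ± 0.03. Notch2 was at 10.90 ± 0.08, Relb at 10.40 ± 0.05, Irf4 at 9.78 ± 0.12 and Esam, an adhesion molecule of the Notch-dependent cDC2, at 7.68 ± 0.21. The lectin genes Mgl2 and Clec10a, which mark cDC2 in other tissues, were at 5.74 ± 0.29 and 4.62 ± 0.31, the second below the reference. Among both lists, Clec10a was the only measured member not above the reference.

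Markers of most other spleen cells lay further down the ranking. None of 13 neutrophil genes lay in the highest 10% and 3 of 13 lay above the reference. S100a8, which encodes a calcium-binding protein of neutrophils, was at 3.23 ± 0.11 and Ly6g at 3.89 ± 0.18. Of 13 T cell genes 5 lay above the reference, and the CD3 chains did not, with Cd3d at 5.44, Cd3e at 5.42 and Cd3g at 4.34. The T cell gene in the highest 10% was Ccr7 at 11.56 ± 0.15, the homing receptor that migrating DCs also use. Of 11 NK cell genes 5 lay above the reference, with Klrd1 at 10.18 ± 0.13 in the highest 10% and Gzma at 4.10 and Ncr1 at 5.27 below the reference. None of 8 erythroid and platelet genes and 1 of 15 stromal and endothelial genes, Pecam1 at 9.63, lay in the highest 10%. Above the reference lay 5 of these 8 and 11 of these 15, beside 57.2% of all genes.

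B cell, plasmacytoid DC, monocyte and macrophage genes were read above the reference in larger numbers. Of 16 B cell genes 15 lay above it, with a median of 7.54, including Cd79b at 8.59 ± 0.10, Ms4a1 (CD20) at 8.39 ± 0.12 and Cd79a at 7.78 ± 0.32, while Pax5 was at 5.84 ± 0.09. Of 15 plasmacytoid DC genes 13 lay above it, with a median of 7.44, including Siglech at 7.20 ± 0.17 and Tcf4 at 8.51 ± 0.05. Of 16 monocyte genes 15 lay above it, with a median of 8.76, including Lyz2 at 11.62 ± 0.16, Treml4 at 11.28 ± 0.19 and Ccr2 at 7.50 ± 0.16. All 16 red pulp macrophage genes measured lay above it, with a median of 8.63, including Cd68 at 12.26 ± 0.09 and Adgre1 (F4/80) at 10.41 ± 0.15. Several of these genes are also used by DCs, among them Cd68, Csf1r, Spib and Nr4a1. In bulk RNA, fewer cells of a type and less RNA per cell cannot be told apart, and the part of other cells in these levels was not tested.

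**Figure D2:**
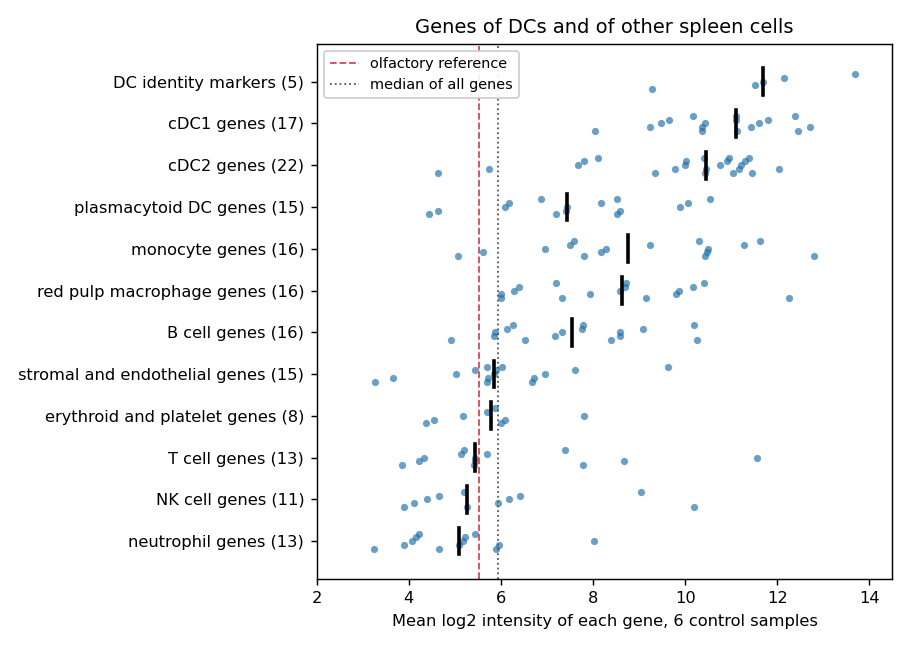
Mean log2 intensity over the 6 controls (horizontal axis) of each measured gene, 1 point a gene, for the DC markers and 11 lists of DC and other spleen cell genes; black bars are list medians, the red dashed line is the olfactory reference and the dotted line the median of all genes. The cDC1 and cDC2 medians lie at 11.1 and 10.4, the neutrophil median at 5.08.

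The 30 highest named genes were led by antigen presentation, respiration and protein synthesis. B2m, the light chain of MHC class I, came first at 13.73 ± 0.0092 (SD, n = 6), with a range from 13.71 to 13.74. Among all genes, 1 probe was higher, that of the small nuclear RNA Rn7sk at 13.79. B2m had the same value in replicates 2, 3 and 5. Whether the small spread of B2m and H2-Ab1 comes from their place near the top of the scale was not tested. The class II chains H2-Ab1, H2-Aa and H2-Eb1 lay at 13.68, 13.17 and 12.92. Of 10 mitochondrially encoded genes 9 were among the highest 500, ND4 at 13.66 ± 0.04 being the first, and ND6, the gene on the other strand, was at 10.32 ± 0.12. The lysosomal lipid cofactors Gm2a and Psap lay at 13.27 and 13.25, the ferritin heavy chain Fth1, the actin-bundling protein Lcp1 and the phospholipase-like gene Plbd1 were also among the 30, as was the cytokine gene Il1b.

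The presentation machinery was read at high levels. Of 12 class II pathway genes 10 lay in the highest 10%, with a median level of 11.7 and a median SD of 0.054, against a median SD of 0.108 over all genes above the reference and 0.084 over the brightest of 20 groups of like mean. Ifi30, the lysosomal thiol reductase that opens antigens, was at 12.85 ± 0.05, the peptide-exchange chain H2-DMa at 11.85 ± 0.10 and Ciita at 11.48 ± 0.03. H2-Eb2 was the member with the largest SD, at 11.45 ± 0.24. Marchf1, the ubiquitin ligase that removes class II from the surface, was at 7.34 ± 0.14. H2-DMb1 was at 7.86 and H2-DMb2 at 10.64, but these copies are similar in sequence and the split between them is uncertain. Both promoter motifs were found in H2-Eb1, read at 12.92, and in H2-DMb1, read at 7.86, and neither in H2-DMa. Of 16 class I pathway genes 13 lay in the highest 10%, with the peptide transporter Tap1 at 11.42 and the immunoproteasome subunit Psmb8 at 11.06. Among 18 lysosomal proteases and their inhibitors 12 did, with cathepsin S (Ctss), the protease that trims the class II invariant chain, at 12.55 ± 0.04. The invariant chain gene itself, Cd74, had no probe of a single gene.

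Actin genes were the function list with the largest share in the highest 10% apart from the mitochondrially encoded genes, 23 of 25, with a median of 11.5. Lcp1 was at 13.02, the Arp2/3 subunits Actr3 and Arpc2 at 12.80 and 12.46, and profilin (Pfn1) at 12.44. Fscn1, the bundler of dendrites in mature DCs, was at 10.31 ± 0.10. Translation factors had 17 of 20 in the highest 10% and cytosolic ribosomal protein genes 35 of 59. Ribosomal protein genes ran from Rpl21 at 13.33 to Rps15 at 5.18 ± 0.41, a span that differs from gene to gene with the probe, and their median of 10.8 was 8.72 with the mean of a gene's probes. Rpl4, for example, had a probe at 7.99 and another that was 5.01 brighter. Ribosomal genes have many processed copies in the genome, so their values are uncertain.

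Nuclear genes of energy metabolism held smaller shares in the highest 10%. Of 37 nuclear oxidative phosphorylation genes 15 lay in the highest 10%, with a median of 8.94, led by Atp5b at 12.01 ± 0.04. Of 17 glycolysis genes 6 did, with a median of 8.59 that was 7.95 with the mean of a gene's probes; Gapdh was at 12.59 ± 0.08, Pkm at 11.20 ± 0.14 and Ldha at 7.91 ± 0.05. Of 30 cell cycle genes all lay above the reference and 11 in the highest 10%, with the DNA clamp Pcna at 11.24 ± 0.06, the proliferation marker Mki67 at 10.87 ± 0.13 and Top2a at 9.97 ± 0.09.

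Of 33 transcription factors of DC development 22 lay in the highest 10% and all lay above the reference. Rel was at 12.25 ± 0.12, Id2, which blocks the plasmacytoid programme, at 12.15 ± 0.07, Etv6 at 11.64 ± 0.09 and Spi1 (PU.1) at 10.36 ± 0.08. Gfi1 was the lowest at 6.27 ± 0.13. The C/EBP family had no member in the highest 10%. Cebpb ranged from 6.64 through a median of 6.77 to 7.15, with the highest value in replicate 3 and the other 5 within 6.64 to 6.86. Its SD of 0.19 was 0.090 without that replicate. Cebpg was at 8.42 ± 0.08, Cebpa at 7.59 ± 0.09, the stress factor Ddit3 at 7.58 ± 0.10, Cebpd at 6.72 ± 0.20 and Cebpe at 5.25 ± 0.08, below the reference.

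Receptors that let DCs sense cytokines were read at high levels, 17 of 29 in the highest 10%. Besides Flt3 and Ccr7 they included the interferon gamma receptor Ifngr1 at 12.20 ± 0.03, the GM-CSF receptor Csf2ra at 11.52 ± 0.22, Il10ra at 11.40 ± 0.18 and Cxcr4 at 11.33 ± 0.16. The decoy receptor Il1r2 was at 11.31 ± 0.32, with its highest value, 11.76, in replicate 1 and its lowest, 10.95, in replicate 5. The signalling receptor Il1r1 was at 5.17 ± 0.12, below the reference.

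Cytokine genes were spread over the whole range. Among 30 measured, 11 lay in the highest 10% and 5 below the reference. Il1b had an SD of 0.15 and ranged from 12.72 in replicate 3 through a median of 13.04 to 13.13. The chemokine genes Ccl5, Cxcl9 and Ccl3 lay at 12.57 ± 0.12, 12.22 ± 0.13 and 12.18 ± 0.26, and Tnf at 10.52 ± 0.27. Il12b was at 9.35 ± 0.25 and its partner subunit Il12a at 5.09 ± 0.10. Il6 had a mean of 5.43 ± 0.33, below the reference, but its values in replicates 2 to 5 were 5.59, 5.59, 5.68 and 5.71, above it, and without replicate 6 its mean was 5.53 against a reference of 5.51. Il23a at 4.92 ± 0.18, Il10 at 4.10 ± 0.18 and Ifnb1 at 3.26 ± 0.12 were below the reference. Thus genes for IL-1 beta and several chemokines were read near the top. Il10, Ifnb1 and the subunit genes Il23a and Il12a were read below the olfactory reference.

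Of 23 costimulation and maturation genes 21 lay above the reference. Cd83 was at 11.83 ± 0.09, Icosl at 11.88 ± 0.08, the B7 genes Cd80 and Cd86 at 11.40 ± 0.24 and 11.01 ± 0.19, and Cd40 at 9.52 ± 0.04, while Cd70 at 3.74 ± 0.13 and Lamp3 at 4.35 ± 0.20 lay below it. In all, 12 lay in the highest 10%. Among 26 pattern recognition genes 12 did, led by Unc93b1, the chaperone that carries nucleic acid-sensing Toll-like receptors to endosomes, at 12.25 ± 0.04, the beta-glucan receptor Clec7a at 11.67 ± 0.14 and Tlr3. Tlr9, Tlr11 and Tlr13 lay at 10.48, 10.37 and 10.34, and Tlr4, the endotoxin receptor, at 5.97 ± 0.18, was the lowest. Of 23 interferon-stimulated genes 7 lay in the highest 10%, from Ifi205 at 12.60 ± 0.05 to Ifit2, the lowest, at 5.92 ± 0.27.

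Immediate early genes, which cells switch on quickly after stimulation, all lay above the reference, and 25 of 29 lay in the highest 10% with a median of 11.0. Nr4a1 ranged from 12.64 through 12.82 to 13.03. Fos was at 11.64 ± 0.16, Jun at 12.10 ± 0.17, Dusp1 at 12.41 ± 0.12 and Egr1 at 10.29 ± 0.25. Of 14 heat shock genes 10 lay in the highest 10%, with Hspa1a at 13.15 ± 0.15 and Hspa1b at 12.66 ± 0.12, near-identical copies whose split is uncertain. The nuclear RNAs Malat1 and Neat1, read as signs of RNA quality beside the mitochondrial genes, lay at 12.75 ± 0.06 and 10.95 ± 0.28.

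At the other end lay gene families of sense organs and other tissues. Of 1105 olfactory receptor genes 626 (56.7%) were in the lowest 10%, as were 203 of 285 vomeronasal receptor genes (71.2%) and 25 of 38 taste receptor genes (65.8%). Among 42 beta-defensins 4 lay above the reference, of 16 GABA receptor subunits 1, of 37 Hox genes 9 and of 98 cytochrome P450 genes 24. By contrast 37 of 39 proteasome subunits and 59 of 70 genes named Rab lay above it. Protein-coding genes were above the reference in 61.8% of cases and long noncoding RNA genes in 26.3%. On the X chromosome 333 of 724 protein-coding genes (46.0%) lay above it, on the Y 1 of 15, and on the mitochondrial genome 10 of 10.

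A few receptor genes stood outside their families. The vomeronasal receptor gene Vmn1r233 was read at 12.48 ± 0.07, rank 65 of all genes, and the olfactory receptor gene Olfr111 at 8.50 ± 0.41. What these probes bind was not tested.

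Small RNA genes were read very unevenly. Of 483 microRNA genes 123 lay above the reference, and of 79 small nucleolar RNA genes 70 did, of which 29 lay in the highest 10%. Mir142, singled out after its values were seen because its RNA is known to be abundant in blood cells, was at 9.71 ± 0.38 and ranked 8 among the microRNA genes. The probe reads precursor RNA and does not separate the arms, whose RefSeq sequences (GRCm38.p6) carry different seeds (bases 2 to 8, in capitals). Mir5099 was the highest microRNA gene at 13.16.
mmu-miR-142a-5p: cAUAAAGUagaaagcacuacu
mmu-miR-142a-3p: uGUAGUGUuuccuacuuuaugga

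Most genes differed little among the 6 controls. The median SD was 0.108 over the 12684 genes above the reference, and 11392 of these (89.8%) had an SD under 0.2. The median SD was smaller for bright genes, at 0.084 in the brightest of 20 groups of like mean against 0.143 for genes read between 3.45 and 3.90. An SD of 0.5 or more was found in 39 genes, 0.307% of those above the reference, with Fam71a at 0.504 just inside that limit and Klk1 at 0.495 just outside. They comprised 12 immunoglobulin genes, 11 small RNA genes, 11 other named genes, 3 predicted genes or clones, 1 olfactory receptor gene and 1 pseudogene. The count rested partly on single samples, since 9 of the 39 kept an SD of 0.5 or more whichever replicate was left out, 7 of them immunoglobulin genes and the other two Ccr3 and Slc40a1.

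**Figure D3:**
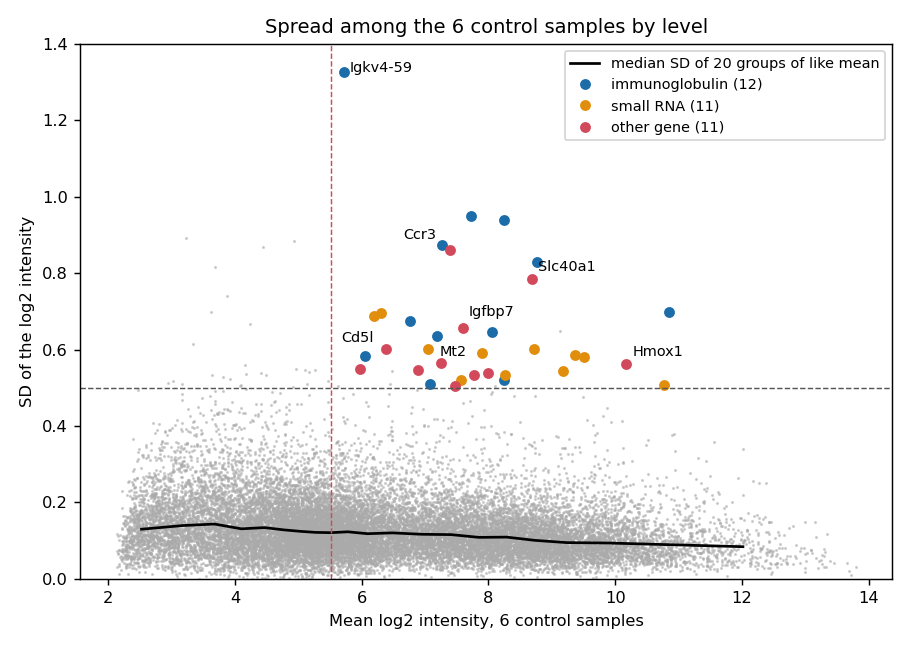
SD of the log2 intensity over the 6 controls (vertical axis) against the mean (horizontal axis) for 22180 genes in grey, with the median SD of 20 groups of like mean as a black line, the olfactory reference and the SD limit of 0.5 as dashed lines. Coloured points are the variable genes of the 3 largest kinds, with immunoglobulin genes up to an SD of 1.33 and Ccr3 and Slc40a1 at 0.86 and 0.79.

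Of the 11 other named genes, 8 were highest in replicate 2 and lowest in replicate 3. Of all 12684 genes above the reference, 1895 were highest in replicate 2 and 2318 lowest in replicate 3. The share with both was not counted, and the 11 genes were chosen for a large SD over these same samples. Ccr3, the eotaxin receptor, ranged from 6.01 through a median of 7.42 to 8.62. Slc40a1, which encodes the iron exporter ferroportin, ranged from 7.48 through 8.73 to 9.83. Hmox1, the heme-degrading oxygenase, ranged from 9.36 through 10.19 to 10.98. In all 3, replicate 2 was the highest sample and replicate 3 the lowest. Cd5l, a secreted macrophage protein, ranged from 5.59 to 7.42, Fcna, a ficolin, from 7.26 to 8.85, and Mrc1, the mannose receptor, from 7.07 to 8.65, again between replicates 3 and 2. Without replicate 2 the SD was 0.36 for Cd5l, 0.38 for Fcna and 0.35 for Mrc1.

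The red pulp macrophage list as a whole followed the same 2 samples. Of its 16 genes 14 were highest in replicate 2 and 12 lowest in replicate 3, where 1895 and 2318 of all 12684 genes above the reference were. Their mean deviation was 0.49 in replicate 2 and -0.48 in replicate 3, with the other 4 samples between -0.16 and 0.15. Of the 16, 12 had an SD at least 2 times that of genes of like mean, as had 954 of the 12684 genes. C1qb, a complement subunit, ranged from 9.32 through 9.82 to 10.63 and Vcam1 from 9.07 through 9.84 to 10.33. Spic, the factor required for red pulp macrophages, was at 9.16 ± 0.34. The pan-macrophage genes Cd68 and Adgre1 had smaller SDs of 0.091 and 0.15, and the DC markers deviated by no more than 0.071 on average in any sample. Slc40a1, Hmox1 and Cd5l were the 3 members among the 39 variable genes, and whether the number of such cells differed was not tested.

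Immunoglobulin genes varied in another pattern. Of 22 measured, 16 lay above the reference, with a median SD of 0.64. Among the 16, 8 were highest in replicate 3 and 6 in replicate 1, and 9 were lowest in replicate 6. Of all genes above the reference 14.3% were highest in replicate 3, 15.1% highest in replicate 1 and 11.4% lowest in replicate 6. The immunoglobulin mean deviations were 0.65, -0.34, 0.74, -0.36, -0.10 and -0.59 in replicates 1 to 6. The kappa variable gene Igkv4-59 had the largest SD of any gene above the reference, 1.33, with values from 4.12 to 7.70. In replicates 2, 5 and 6 it was at 4.74, 5.01 and 4.12, below the reference. Its mean, 5.71, passed the reference only through replicates 1, 3 and 4. Jchain, which joins secreted IgM and IgA, ranged from 6.52 to 8.06 with the 2 highest values in replicates 3 and 1. The constant gene Ighm, in contrast, was steady at 12.02 ± 0.10. The B cell list shared part of this order. Of its 15 genes above the reference 6 were highest in replicate 1 and 7 lowest in replicate 6, with mean deviations of 0.096 and -0.052, while replicate 3 was at -0.066. Variable genes of 1 family are similar in sequence, so the split among them is uncertain.

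Other groups had smaller shifts in single samples. Of 29 immediate early genes, 20 were highest in replicate 2, as were 14.9% of all genes above the reference, with a mean deviation of 0.23. In replicate 1, 15 were lowest, as were 22.5% of all genes, and in replicate 3, 10 were lowest, with mean deviations of -0.20 and -0.096. Ier3 ranged from 9.02 in replicate 1 to 10.19 in replicate 2 with a median of 9.71, and Egr2 from 8.18 in replicate 1 to 9.06 with a median of 8.90. Replicate 2 held the highest value of most genes of this group, and the lowest values were divided mainly between replicates 1 and 3. Among 70 small nucleolar and Cajal body RNA genes above the reference, 43 were highest in replicate 3, as were 14.3% of all genes, and 31 lowest in replicate 1. Of 17 cDC1 genes 14 were highest in replicate 4, where 2553 of all 12684 genes were, with a mean deviation of 0.15. The cell cycle list was highest in replicate 4 for 16 of 30 genes, with the replication helicase gene Mcm5 between 9.89 in replicate 2 and 10.53 in replicate 6. Among the 10 mitochondrially encoded genes, 8 were highest in replicate 5, as were 10.7% of all genes, and 6 lowest in replicate 6, as were 11.4%. Their mean deviations were 0.080 and -0.049 there.

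**Figure D4:**
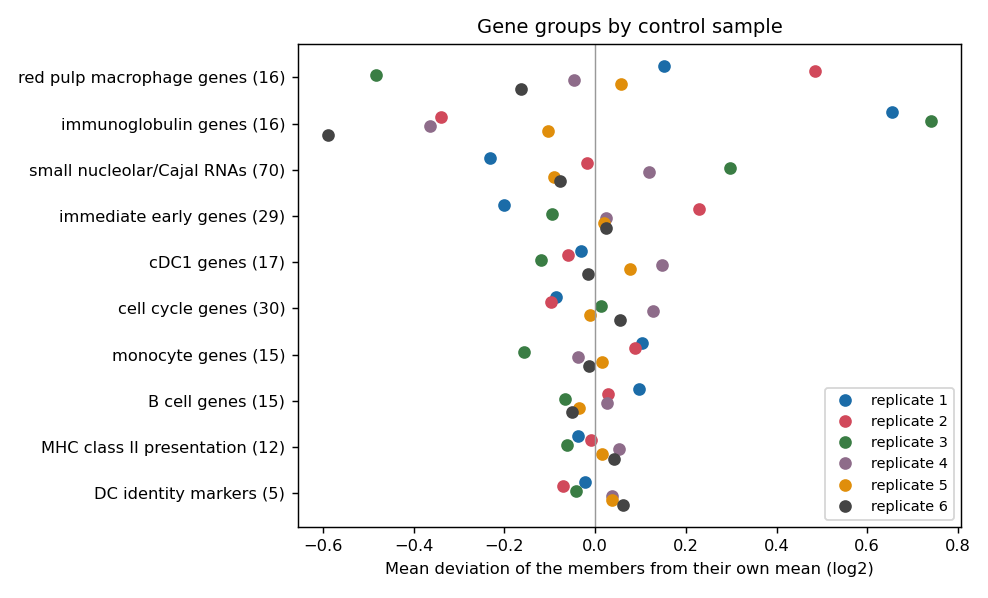
Mean deviation of a list's members from their own means (horizontal axis, log2) in each of the 6 controls, 1 coloured point a sample, for 10 lists, with the number of members above the olfactory reference in brackets. The red pulp macrophage list spans -0.48 to 0.49 and the immunoglobulin list -0.59 to 0.74, while the DC markers span -0.071 to 0.061.

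Single genes had other orders. Igfbp7, a secreted binding protein, was lowest in replicate 2 at 6.39 and between 7.46 and 8.21 in the other 5 samples. Mt2, a metallothionein, was highest in replicate 3 at 8.28 and between 6.56 and 7.27 in the others. Ly6d was highest in replicate 2 at 8.22 and between 7.13 and 7.46 in the others. For each of these a single sample set most of the spread. Dpp3, a cytosolic peptidase, was read between 9.49 and 9.61 in replicates 1 to 3 and between 10.27 and 10.36 in replicates 4 to 6. Lyz1 was read between 8.02 and 8.04 in replicates 1 to 3 and between 8.38 and 9.18 in replicates 4 to 6, and Lyz1 and Lyz2 are similar in sequence. Nanp was read between 5.19 and 5.73 in replicates 1 to 3 and between 6.27 and 6.56 in the others. Trim12c was read between 5.19 and 5.61 and between 6.05 and 6.41. Both genes lay near the olfactory reference, and below it in replicate 2. Ramp3, a receptor activity-modifying protein, had the opposite order, with 7.34 to 7.84 in replicates 1 to 3 and 6.80 to 7.05 in replicates 4 to 6. In each of these 5 genes, and in Il1r2, replicates 1 to 3 and 4 to 6 did not overlap. Those genes were named for a large SD over the same samples, and the split was seen afterwards. The DC markers Itgax, H2-Ab1, Dpp4 and Zbtb46, not named for their SD, were also lower in replicates 1 to 3 without overlap, and Flt3 overlapped. Itgax was read between 12.04 and 12.14 in replicates 1 to 3 and between 12.23 and 12.25 in the others. For Dpp4 the gap was narrow, from 11.690 to 11.694. Other named genes, among them Cd4 and H2-Eb2, also split this way. The share of all genes with such a split was not counted, so no division of the samples can be read from them. The highest correlations between arrays were 0.996 for replicates 4 and 5 and 0.995 for replicates 4 and 6. Replicates 5 and 6 had 0.9948, below the 0.9949 of replicates 2 and 4. Replicate 6 had the lowest mean correlation with the other arrays, 0.9937. The labels name no batch, and whether these samples differ in source mouse was not tested.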

How the data were processed

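RNA of 9 samples was hybridised to single-channel arrays, and the 6 controls are described. The values deposited by the authors are log2 probe intensities, and the submitters' processing notes name RMA, with version, settings and genome build not given here. RMA includes quantile normalization, which would hide a change shared by most genes. Of 41801 probe rows, 34470 had a value in all 6 controls, of which 23521 name 1 gene, 1814 several and 9135 none in the platform annotation. These gave 22180 genes, 1082 with several probes, whose brightest and dimmest differed by a median of 1.70. Gene classes came from RefSeq (GRCm38.p6) for 21994 genes. Means, SDs, ranks and deviations were computed in Python 3.11.15 with pandas 2.3.3 and numpy 2.4.6, and figures were drawn with matplotlib 3.10.9. The ranking was tested on simulated data. Probe intensity gives no depth, so the number of arrays limits the precision.

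The samples and gene lists (34 lists, 720 entries, 639 measured, 43 only on probes of several genes and 38 without a named probe) were chosen with earlier results of these data known. Genes were named by a rule: the 5 markers, Cebpb, the 30 highest and the 30 with the largest SD above the reference, leaving out predicted genes, small RNAs, pseudogenes and olfactory receptors and giving immunoglobulin genes as a group, and of each list the 3 highest, the lowest and the 2 with the largest SD, with all sex-linked genes, Nnt and the genes around Itgax. Other list members and Vmn1r233, Olfr111, Mir142, Mir5099 and Rn7sk were named after their values were seen. No test between groups was made, and samples apart from the rest were found by Dixon's limit. Alternatives were other rules for several probes, other normalizations, other references, spread measures and numbers of genes, and each replicate left out.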

Additional observations from a re-analysis of the deposited data

Results flagged for a closer look

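In 30 of 217 named genes (13.8%) and 2 of 32 lists, 1 of the 6 samples lay apart from the rest, meaning that its gap to the nearest other sample took more of the whole range than Dixon's limit for 6 samples. Chance flags about 1 in 20 groups, but many of these genes were named for a large SD over the same samples, so their share cannot be read against that rate. The sample apart was replicate 6 in 10 of these 32 cases, replicate 3 in 7, replicates 1 and 5 in 5 each, replicate 2 in 3 and replicate 4 in 2. Where the range is small, as for Calr between 12.13 and 12.22, the gap is small too.

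Among presentation and DC genes, the gap as a share of the range was 0.905 for Calr, 0.801 for H2-Eb1, 0.777 for Nlrc5, 0.740 for Ifngr1, 0.737 for Cd83, 0.715 for H2-K1, 0.706 for Id2 and 0.648 for Ifi205. H2-Eb1, Ifngr1 and Id2 were each low in replicate 3, and Cd83 was high in replicate 2. Among genes of respiration, translation and the cytoskeleton it was 0.853 for Myl12a, 0.711 for Atp5a1, 0.700 for Eif2s2, 0.693 for Myl6, 0.659 for ND4, 0.647 for ND3, 0.640 for Rpl28, 0.626 for COX3 and 0.6252 for Cox6a2. ND4 and COX3 were high in replicate 5, and ND3 and Rpl28 low in replicate 6.

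For genes of innate immunity and of monocytes it was 0.784 for Tlr4, 0.755 for Ifnb1, 0.730 for Fn1, 0.661 for Treml4, 0.644 for Egr2, 0.639 for Cxcr5, 0.637 for Cxcr2 and 0.636 for F13a1. Tlr4 and Egr2 were low and Fn1 and F13a1 high in replicate 1. In the C/EBP family, Cebpg had 0.698 and Cebpe 0.654, with replicate 6 apart in both. For genes of other cells, Ly6d had 0.703, Cdh5 0.689 and Lum 0.687. By list, the mean deviation of erythroid and platelet genes had 0.756, with replicate 6 at -0.12, and that of cytokine and chemokine receptors had 0.700, with replicate 3 at -0.064.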

How the results depend on the processing

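The number of variable genes moved most with the processing. It was 39, but 66 with no filter on signal and 177 when the range of the 4 middle values had to reach 0.5. That range is another measure than the SD, so 177 and 39 do not rest on like limits. The number was 36 with the SD taken relative to genes of like mean. It was 15 without immunoglobulin genes, small RNAs and pseudogenes, a choice made after seeing the data. It was 37 with arrays centred on the median, 41 with a second quantile normalization, and ranged from 29 to 44 with 1 replicate left out. Genes above the reference ranged from 12615 to 12749 with 1 replicate left out, and were 9837 with the 99th percentile of olfactory receptors and 13880 with the vomeronasal one. Of the highest 500 genes, 494 to 499 were shared when 1 replicate was left out and 442 with the mean of a gene's probes. Genes on a list made up 32% of the highest 500, beside 2.69% of all genes, and the lists were chosen with earlier results of these data known. The 32% was 31.8% to 32.2% with 1 replicate left out and 29% with the mean of a gene's probes. Listed genes made up 42.4% of the highest 250 and 22.5% of the highest 1000. Over 217 named genes and 10 settings, 13 levels moved by 1 SD or more, all with the mean of a gene's probes. Of the named genes 14 have several probes, and Rpl4 moved most, to 10.50. Leaving out 1 replicate cannot move the mean of the same probe by 1 SD, and centring the arrays leaves that mean unchanged. Those settings could therefore not flag a gene level unless its probe changed. Of 340 list medians 11 moved. Brightness above the reference limits what low genes show. No paired analysis was possible because the values come from 1 group and no test.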
